A study of Mus musculus with 96 samples.

Results

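The response of visual cortex nuclei to 1 h of light was measured in control mice of line E23 by comparing 4 libraries of total nuclei made after light with 4 made in the dark. These 8 of the 96 libraries of the study were chosen by their labels, and none was left out. The study concerns enhancers of Igf1, the gene of insulin-like growth factor 1, in VIP interneurons, the cortical inhibitory cells that make vasoactive intestinal peptide. Its libraries come from 3 mouse lines (E1, E23 and E123), 2 viruses (active Cre and inactive dCre), 2 light conditions and 2 sorted fractions (VIP nuclei and total nuclei). In the E23 dCre total nuclei described here the virus carried no active Cre, so that light is the difference between the groups.

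Both groups were Igf1-E23 fl/fl, with recognition sites of the recombinase Cre on either side of an Igf1 enhancer region in both copies. They also carried VIP flp/wt, 1 allele that supplies the recombinase Flp. At 55 to 60 days of age both groups received AAV-Syn1-fDIO-mScarlet-KASH-2a-dCre in the visual cortex. This virus uses the neuronal Syn1 promoter and needs Flp, so its red nuclear tag and its inactive dCre were confined by design to VIP cells. Dark housing began 3 days later and lasted 10 to 12 days. The dark group was harvested in the dark, and the light group after 1 h back in light. Each group had 2 libraries from females and 2 from males, in the dark replicates 1 and 2 (female) and 3 and 4 (male), after light replicates 1 and 4 (female) and 2 and 3 (male). A library was made from 50 to 100 sorted nuclei, so that its mix of cell types rests on few nuclei. The labels number the libraries as biological replicates without saying which animals they came from, and p-values measure only the spread between libraries. For the light response of total nuclei, that spread was estimated from all total-nuclei libraries of the study fitted together. These include the other lines and active Cre, so it is not the spread within the dark and light groups described here alone.

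The 8 libraries held 2957894 to 5905979 counts over genes and 19079 to 20755 detected genes. All 8 matched the sex given for them, and no pair of one group was a duplicate (chi-square per degree of freedom of 14.6 to 23.6 over genes). An index of long against short genes, which stood apart in the dark dCre nuclei of other lines (3.33 ± 0.886 in E1, n = 3, and 3.38 ± 0.782 in E123, n = 4), was balanced here, with 2.03 ± 0.188 in the dark and 2.01 ± 0.227 after light (SD, n = 4 each). Levels are given in CPM, the counts of a gene scaled to a common library size after TMM normalization. Changes are log2 fold changes of light over dark from edgeR's quasi-likelihood test, given ± their standard error (SE), and a gene was called at an adjusted p under 0.05.

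Cortical neurons that are driven again after darkness take up calcium, and calcium-dependent kinases and the MAP kinase pathway then act on transcription factors that are already present, among them CREB. The first genes to be transcribed, the immediate-early genes, encode transcription factors of the Fos, Egr and Nr4a families and a set of synaptic proteins. A later set of effector genes encodes secreted and synaptic proteins such as BDNF, by which the cells adjust their connections. Nuclear RNA includes newly made transcripts, so that it reports on recent transcription. The cDNA here was made from poly(A) tails, and how far it holds transcripts still being made was not tested.

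After 1 h of light, 31 genes were higher and 7 were lower among the 21213 tested, or 0.146% and 0.033% of them (0.179% together). The genes that rose included all 3 Nr4a receptors (Nr4a1, Nr4a2, Nr4a3), the AP-1 genes Fos and Fosl2, the neurotrophin gene Bdnf with the gene of its receptor TrkB (Ntrk2), the prohormone protease gene Pcsk1, the synaptic scaffold gene Homer1 and the kinase gene Sik2. The smallest rise was 2.09-fold and the median 3.22-fold. In 30 of the 31 genes all 4 light libraries lay above all 4 dark libraries, a pattern shown by 505 genes, or 2.38% of those tested. The exception was Camkk1, the gene of a kinase that activates other calcium-dependent kinases. Over all genes tested the median change was −0.02 (log2), and 1837 genes (8.66%) had an unadjusted p under 0.05. In such mixtures, fewer cells of a type and less RNA per cell cannot be told apart.

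**Figure D1:**
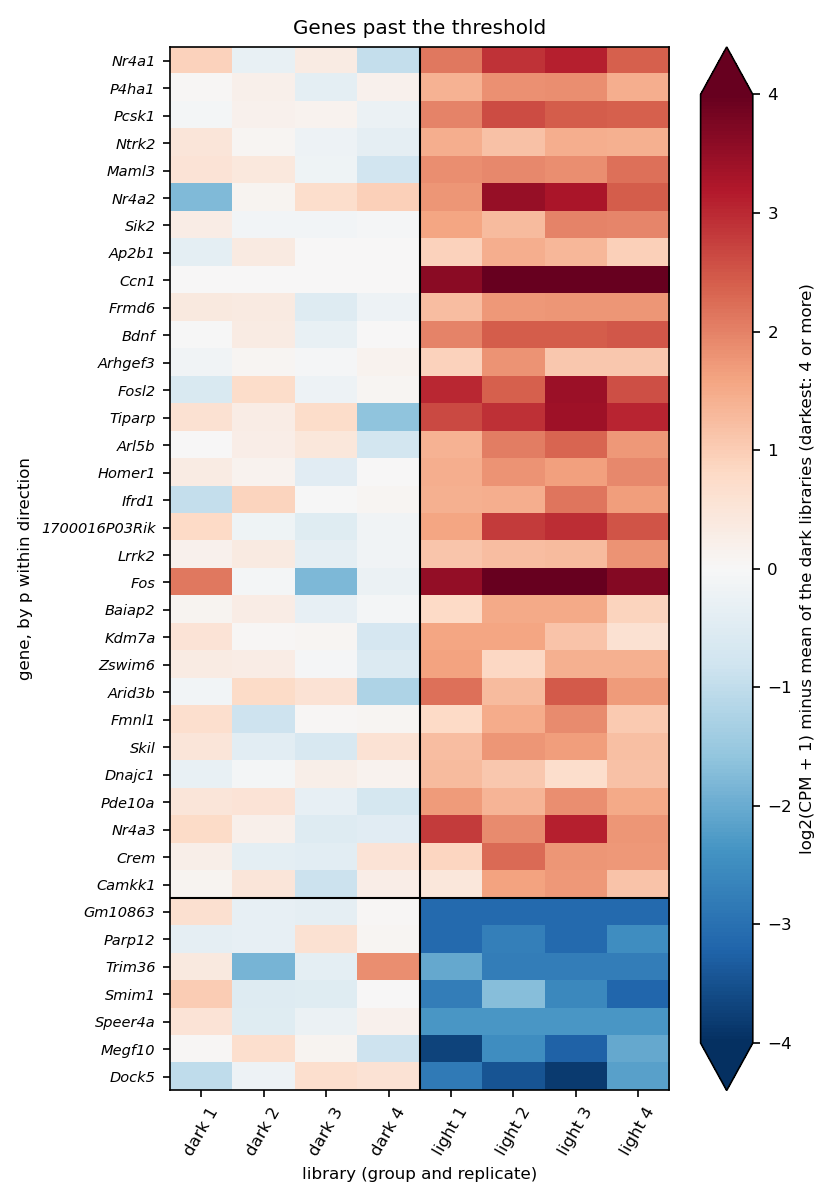
Heat map of the 38 called genes (rows, by p within each direction) in the 4 dark and 4 light libraries (columns), as log2(CPM + 1) minus the mean of the 4 dark libraries. The 31 genes that rose are red in the 4 light columns and the 7 that fell are blue, and for Camkk1 light replicate 1 lies within the dark range.

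The number of calls moved with single libraries. Leaving out 1 library at a time gave 15 to 37 calls, with 15 without dark replicate 4, 16 without dark replicate 3, 20 without light replicate 3 and 23 without light replicate 2. With both dark replicates 3 and 4 left out, an alternative added after seeing the data, 2 genes were called, Nr4a1 and Nr4a2. These are the male dark libraries, so this setting sets 2 female dark libraries against light libraries of both sexes. No other pair was left out, so the loss cannot be laid to these libraries rather than to a smaller dark group or to sex. In each of the 19 alternative settings run, the 31 genes had the same sign and an unadjusted p under 0.05. Called with each of the 8 libraries left out were 10 genes, Nr4a1, Nr4a2, P4ha1, Pcsk1, Ntrk2, Maml3, Sik2, Ap2b1, Ccn1 and Bdnf. A fit of all 96 libraries, used for the comparison with VIP nuclei, is not among the 19 settings. In it the 31 genes kept their sign and an unadjusted p under 0.05, but many lost the call. Of the 10, Nr4a2, P4ha1 and Bdnf did not pass there (edgeR adjusted p = 0.504, 0.0549 and 0.682), and the others did.

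The Nr4a genes encode orphan nuclear receptors that are transcribed within minutes of neuronal activity. Nr4a1 (ENSMUSG00000023034, chr15:101254269-101274795, plus strand, mm10) stood at 51.6, 21.4, 33.9 and 13.2 CPM in dark replicates 1 to 4 and at 118, 204, 235 and 143 in light replicates 1 to 4. The lowest light library was thus above the highest dark library, and the gene had the smallest p of the comparison (2.54 ± 0.32, adjusted p = 5.17e-06). Nr4a2 (chr2:57106830-57124003, minus strand) stood at 2.24, 10.8, 17.1 and 20.6 CPM in the dark. After light it stood at 36.5, 105 and 58.1 in replicates 1, 3 and 4 and above these in replicate 2 (mean 80.6 ± 40.2, SD, n = 4), a rise of 2.68 ± 0.48 with an adjusted p of 0.00318. Light replicate 1 was the lowest of its group for both genes. The third member, Nr4a3 (chr4:48045153-48086447, plus strand), went from 9.83 ± 4.78 to 56.4 ± 25.8 CPM (SD, n = 4) and passed narrowly (adjusted p = 0.0475). Its call was lost without any one of 6 libraries, dark replicates 2, 3 and 4 and light replicates 1, 2 and 3.

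Promoter sequences are shown for 4 of the genes that rose because they rose after light and their promoters hold the half-site of the cAMP response element, TGACG, to which CREB-family factors bind. The stretches are the 250 bases before the start in RefSeq (GRCm38.p6, the assembly of mm10), 5′ to 3′ along the gene, with each TGACG or its reverse complement in capitals. They belong to the 3 genes with the smallest p that have 1 start in that table, a half-site and no annotated exon in the stretch, and to Fos. The stretch of Nr4a1 lies inside the span given above, which includes a start further upstream.
Nr4a1, chr15:101266596-101266845, plus strand: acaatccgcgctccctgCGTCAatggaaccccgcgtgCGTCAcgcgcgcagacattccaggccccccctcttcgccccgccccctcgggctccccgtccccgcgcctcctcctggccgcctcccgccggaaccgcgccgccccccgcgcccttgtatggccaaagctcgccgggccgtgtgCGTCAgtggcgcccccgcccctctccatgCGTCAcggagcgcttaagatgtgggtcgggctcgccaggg
Nr4a2, chr2:57124004-57124253, minus strand: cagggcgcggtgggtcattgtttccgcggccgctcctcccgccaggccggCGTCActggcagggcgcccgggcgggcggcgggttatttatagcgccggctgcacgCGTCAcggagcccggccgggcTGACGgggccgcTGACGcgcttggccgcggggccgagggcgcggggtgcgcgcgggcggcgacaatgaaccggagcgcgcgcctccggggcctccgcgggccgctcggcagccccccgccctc
Ccn1, chr3:145649986-145650235, minus strand: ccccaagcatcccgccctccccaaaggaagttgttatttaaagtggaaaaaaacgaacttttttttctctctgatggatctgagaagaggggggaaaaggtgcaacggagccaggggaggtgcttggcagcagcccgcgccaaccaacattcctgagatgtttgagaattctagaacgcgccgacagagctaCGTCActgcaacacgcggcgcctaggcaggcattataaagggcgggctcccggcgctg
Fos, chr12:85473640-85473889, plus strand: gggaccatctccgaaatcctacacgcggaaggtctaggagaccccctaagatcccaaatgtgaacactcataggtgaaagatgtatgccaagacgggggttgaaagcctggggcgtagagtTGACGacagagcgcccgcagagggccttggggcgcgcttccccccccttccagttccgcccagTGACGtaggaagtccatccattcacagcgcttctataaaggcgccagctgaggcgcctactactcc

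Nr4a1 and Nr4a2 each hold 4 half-sites in these stretches, Fos 2 and Ccn1 1. Of the 31 genes, 28 matched the RefSeq promoter table, with 40 promoters of 250 bases before to 50 after a start. Searched on both strands, TGACG was in 18 of the 40 (45%), in 20.8% of all 32851 promoters of the table and in 27.9% of those of genes tested here. By gene, it was in 17 of 28 (60.7%), beside 32.2% of the tested genes in the table. The whole palindromic element TGACGTCA, which contains the half-site on both strands, was in 3 of the 40 (7.5%), those of Ap2b1, Arl5b and Pcsk1. It was in 1.79% of all promoters and 2.67% of those of tested genes. The AP-1 site TGANTCA was in 1 of 40 (2.5%, Bdnf), in 7.81% of all and in 5.65% of those of tested genes. The CArG box that serum response factor binds was in 1 (Arid3b), in 1.63% of all and in 1.31% of those of tested genes. The E-box CACGTG was in 3 (7.5%), in 7.15% of all and in 9.06% of those of tested genes. The NR4A site AAAGGTCA was in none, in 1.51% of all and in 1.05% of those of tested genes. A match is a description of these letters and not a bound site.

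Fos and Fosl2 encode partners in the AP-1 dimer. Fos (chr12:85473890-85477273, plus strand) stood at 18.3, 3.23, 0.30 and 2.77 CPM in the dark and at 49.7, 111, 79.5 and 55.7 after light. Dark replicate 1 was the highest of the dark libraries, and still below each light library. The rise was 3.53 ± 0.75 (adjusted p = 0.0242), and the adjusted p was 0.0562 to 0.134 without light replicate 2 or 3 or dark replicate 2, 3 or 4. Fosl2 (chr5:32135801-32157842, plus strand) stood at 2.45, 7.92, 3.60 and 4.62 CPM in the dark and at 41.8, 27.1, 55.8 and 30.5 after light (3.07 ± 0.59, adjusted p = 0.00657). Without dark replicate 3 its adjusted p was 0.0554.

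Several well-known activity genes did not pass in this comparison. In edgeR's test Arc passed in total nuclei of E23 Cre, E1 dCre and E123 dCre mice (adjusted p = 0.0173, 0.0319 and 0.000311). Egr1 and Junb passed in those of E1 dCre and E123 dCre mice, and Npas4 in none of them. Egr1, a zinc-finger immediate-early factor, stood at 158, 32.6, 32.7 and 39.1 CPM in the dark and at 224, 321, 242 and 156 after light, so that dark replicate 1 overlapped light replicate 4 (1.84 ± 0.45, adjusted p = 0.0758). Arc, which encodes a synaptic protein that forms capsid-like particles, stood at 117, 42.5, 14.1 and 43.4 CPM in the dark and at 85.5, 290, 258 and 109 after light (1.77 ± 0.57, adjusted p = 0.337). In Arc dark replicate 1 was above light replicates 1 and 4. Junb, another AP-1 gene, averaged 20 ± 18.7 and 59.7 ± 25.9 CPM (adjusted p = 0.272), with dark replicate 1 at 47.9. Npas4, a factor that responds selectively to calcium, had few counts, with 7.75, 0, 6 and 0 CPM in the dark and 11.2, 17.1, 43.2 and 14.3 after light (2.61 ± 0.88, adjusted p = 0.38).

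Of 25 tested genes on a list of immediate-early transcription factors, 5 rose, none fell, and 12 (48%) were higher at an unadjusted p under 0.05, beside 3.75% of all genes. The 5 are the 3 Nr4a genes, Fos and Fosl2. The median change of the list was 1.56, beside −0.02 over all genes. In 11 of the 25 (44%) all light libraries lay above all dark libraries, beside 2.38% of all genes. Of 24 other immediate-early genes, 2 rose, Ccn1 and Arl5b, and 13 (54.2%) were higher at an unadjusted p under 0.05, with a median of 1.36. Of 13 MAP kinase phosphatases and feedback regulators none passed, but 7 (53.8%) were higher at an unadjusted p under 0.05, with a median of 1.23. Dusp14 (35.9 ± 10.9 to 84.2 ± 19.0 CPM, adjusted p = 0.0555) and Dusp1 (26.3 ± 21.5 to 99.2 ± 29.0 CPM, adjusted p = 0.0865), genes of phosphatases that switch MAP kinases off, were nearest to the threshold. With both dark replicates 3 and 4 left out, 9 of the transcription factors, 2 of the other immediate-early genes, 6 of the MAP kinase regulators and 11 of the effector genes described below were higher at an unadjusted p under 0.05, beside 1427 of 22424 genes changed in either direction. The 2 of 24 are near that share of genes changed in either direction. The share of all genes that were higher was not counted in this setting. With 1 library left out, the other immediate-early genes numbered 8 without dark replicate 2 and 7 without dark replicate 3 or 4, and the median of the transcription factors was 2.39 without dark replicate 1.

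**Figure D2:**
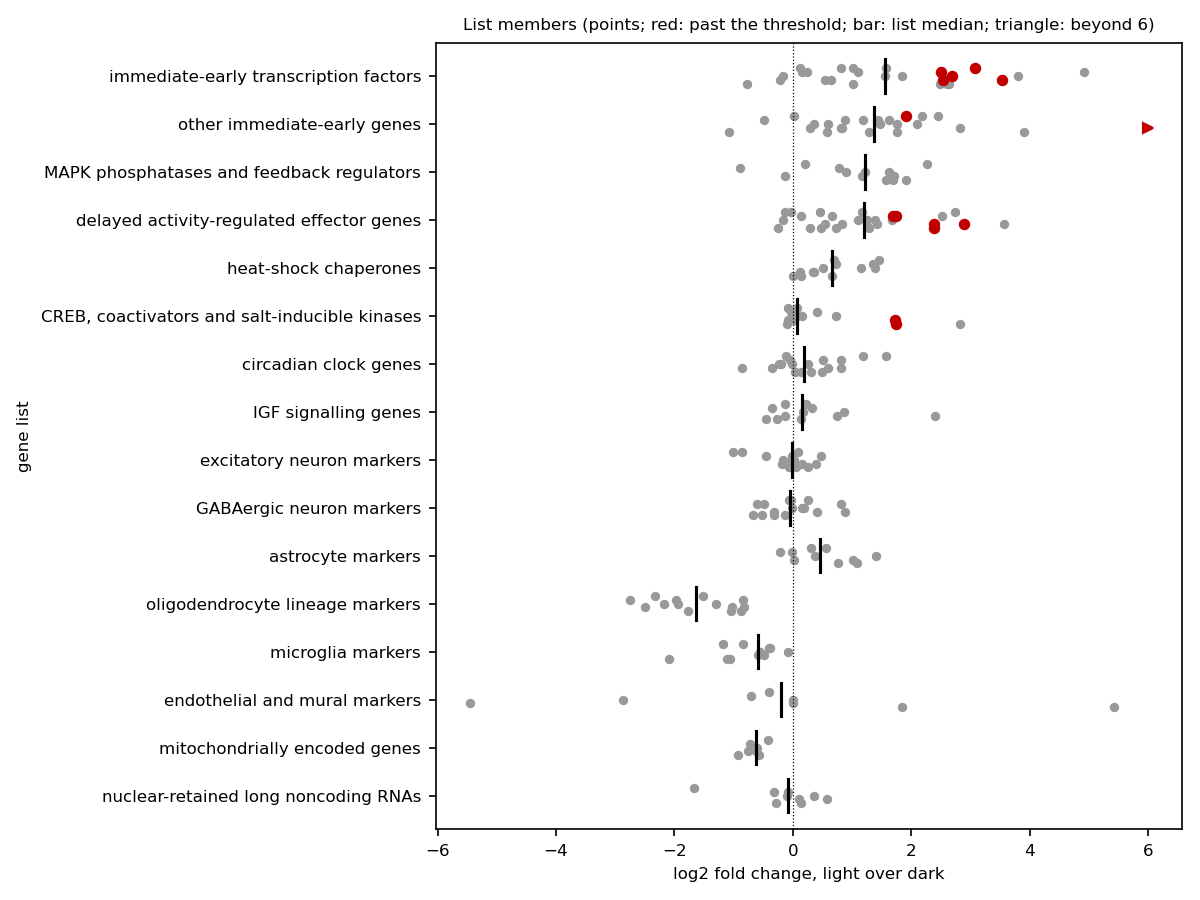
Log2 fold change of light over dark for the tested members of 16 gene lists (1 row per list, 1 point per gene; red points passed the threshold, black bars are list medians, and the triangle is Ccn1, beyond the axis). The bars of the 3 lists of activity-induced early genes and of the effector genes lie between 1.21 and 1.56, that of the excitatory neuron markers at −0.01 and that of the oligodendrocyte lineage markers at −1.64.

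Ccn1 encodes a secreted protein of the extracellular matrix. No read of it was counted in any of the 4 dark libraries, and it stood at 11.2, 130, 87.8 and 20.4 CPM after light, or 1082 counts in all. Set against a floor of 3 counts over the dark group, it was at least 331-fold higher after light (adjusted p = 0.00376). This bound covers counting error only. The log2 change of Ccn1 was 4.13 in E23 Cre, 4.04 in E1 dCre and 3.69 in E123 dCre total nuclei. In VIP nuclei of E23 dCre mice it was 1.21, and none of these 4 changes passed. Light replicates 1 and 4 lay well below the other two. Arl5b, the gene of a small GTPase of the trans-Golgi network, went from 16.1 ± 5.35 to 60.7 ± 16.7 CPM (1.91 ± 0.38, adjusted p = 0.0097). Its adjusted p was 0.0577 without light replicate 3 and 0.0841 without dark replicate 4.

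Genes of a neurotrophin, of a prohormone protease and of the neurotrophin's receptor rose. Bdnf, the gene of brain-derived neurotrophic factor (chr2:109674700-109727007, plus strand), stood at 20.4, 26.1, 16.8 and 20.9 CPM in the dark and at 86.2, 116, 115 and 122 after light. The groups are far apart beside their spread (2.38 ± 0.45, adjusted p = 0.00473). Pcsk1, the gene of a protease that cleaves prohormones (chr13:75089826-75134861, plus strand), stood at 33.4, 40.5, 39.3 and 29.9 CPM in the dark and at 142, 222, 197 and 190 after light (2.39 ± 0.36, adjusted p = 0.000154). Ntrk2, the gene of the BDNF receptor TrkB (chr13:58806569-59133970, plus strand), stood at 559, 417, 341 and 307 CPM in the dark and at 1083, 899, 1075 and 1056 after light. That is a rise of 1.34 ± 0.22 with an adjusted p of 0.00116.

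Homer1, a scaffold gene of the postsynaptic density with a short activity-induced isoform that gene counts do not separate, stood at 193, 168, 113 and 154 CPM in the dark and at 423, 536, 482 and 582 after light (1.69 ± 0.34, adjusted p = 0.0112). Its adjusted p was 0.0912 without dark replicate 3 and 0.0608 without dark replicate 4. Tiparp, the gene of a mono-ADP-ribosyltransferase, went from 11.5 ± 6.32 to 85.8 ± 19.2 CPM (2.89 ± 0.57, adjusted p = 0.0097), with an adjusted p of 0.0608 without dark replicate 4. Of 28 genes on a list of delayed activity-regulated effectors, 5 rose (Pcsk1, Bdnf, Tiparp, Homer1 and Crem) and none fell. At an unadjusted p under 0.05, 14 (50%) were higher, beside 3.75% of all genes. In 15 (53.6%) all light libraries lay above all dark libraries, beside 2.38% of all genes. The median of the list was 1.21, beside −0.02 over all genes.

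**Figure D3:**
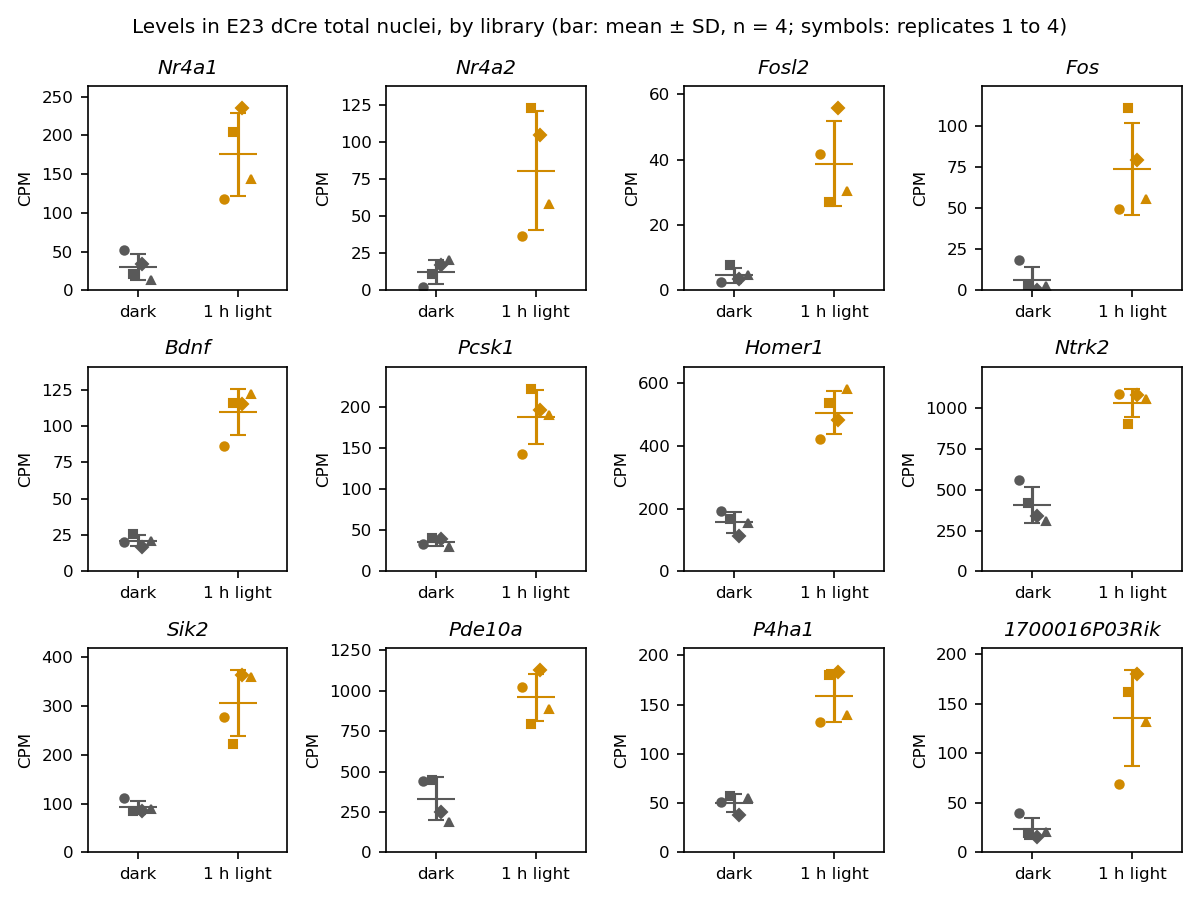
Levels of 12 of the genes that rose in each library (CPM; grey points dark, orange points 1 h light, symbols for replicates 1 to 4, bars mean ± SD, n = 4). In each panel the 4 light libraries lie above the 4 dark libraries, and light replicate 1 is often the lowest of its group.

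CREB acts at cAMP response elements together with CRTC coactivators, which salt-inducible kinases hold in the cytoplasm. Sik2, one of these kinases (chr9:50892801-51009073, minus strand), stood at 112, 84.2, 84.0 and 88.4 CPM in the dark and at 278, 223, 363 and 360 after light (1.73 ± 0.31, adjusted p = 0.00318). Crem, which encodes activators and an inducible repressor of the same element, went from 13.7 ± 4.93 to 45.8 ± 16.9 CPM and passed narrowly (adjusted p = 0.0475). Of the 8 fits that left out 1 library, Crem passed in 1, that without light replicate 1. Of 13 genes on the list of CREB, its coactivators and salt-inducible kinases, Sik2 and Crem rose, and the median was 0.07. Creb1 itself stood at 32.7 ± 12.3 and 32.2 ± 9.86 CPM, and Sik3 at 174 ± 31.5 and 290 ± 22.6 (adjusted p = 0.42).

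Among the 10 genes with the smallest p were 4 others. P4ha1, the gene of a subunit of the enzyme that hydroxylates collagen prolines (chr10:59323296-59373304, plus strand), stood at 51.6, 56.9, 37.5 and 55.7 CPM in the dark and at 133, 180, 183 and 139 after light (1.66 ± 0.24, adjusted p = 0.000128). Maml3, the gene of a Notch coactivator, went from 55.3 ± 21.2 to 206 ± 23.8 CPM (adjusted p = 0.00209), and Ap2b1, the gene of a subunit of the clathrin adaptor AP-2, from 89.7 ± 19.3 to 200 ± 36.5 (adjusted p = 0.00318). Frmd6, the gene of a FERM-domain protein that acts on the Hippo pathway, went from 65.4 ± 19.5 to 199 ± 32.5 CPM (adjusted p = 0.00426, and 0.0549 without dark replicate 3). Maml3 spans many smaller annotated transcripts on both strands, among them C130089K02Rik (3.60 and 19.1 CPM), so that reads inside it cannot all be assigned to one gene.

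The remaining 14 genes that rose are named after their values were seen. Besides Nr4a3 and Camkk1, they are Arhgef3, Ifrd1 (a transcriptional coregulator), 1700016P03Rik, Lrrk2 (a kinase mutated in familial Parkinson's disease), Baiap2 (an actin regulator of dendritic spines), Kdm7a (a histone demethylase), Zswim6, Arid3b (a DNA-binding protein), Fmnl1 (a formin), Skil (a SMAD corepressor), Dnajc1 (a chaperone of the endoplasmic reticulum) and Pde10a (a cyclic nucleotide phosphodiesterase). Pde10a stood at 439, 450, 247 and 191 CPM in the dark and at 1021, 796, 1128 and 888 after light (1.53 ± 0.35, adjusted p = 0.0426). Lrrk2 went from 65.9 ± 14.5 to 170 ± 38.3 CPM (adjusted p = 0.02). Each of the 14 lost its call without at least 1 library. Arid3b and Kdm7a overlap antisense genes that moved with them (Gm17231, 12.3 and 40.7 CPM, and 4930599N23Rik, 19.2 and 47.5 CPM). The libraries do not mark the strand, so the reads of such pairs cannot be told apart. The 31 genes lie on 14 chromosomes, 29 are protein-coding, and their median span is 50009 bp, beside 18434 bp over all tested genes with a position.

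1700016P03Rik is the host transcript of miR-212 and miR-132, a pair of activity-regulated microRNAs with known roles in the visual cortex. Their mature 3′ strands, from RefSeq (GRCm38.p6), are shown because they share a seed (bases 2 to 8, in capitals), the part of a microRNA that pairs with its targets.
mmu-miR-212-3p, chr11:75173443-75173464, plus strand: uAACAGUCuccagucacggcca
mmu-miR-132-3p, chr11:75173723-75173744, plus strand: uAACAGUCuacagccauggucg
Both lie within the host (chr11:75172560-75177633, plus strand), which stood at 39.4, 19.6, 15.9 and 20.3 CPM in the dark and at 68.7, 162, 180 and 132 after light. The rise was 2.5 ± 0.5 (adjusted p = 0.0116). Its adjusted p was 0.0542 to 0.0912 without light replicate 3 or dark replicate 2, 3 or 4. The mature microRNAs were not measured. Ovca2, which overlaps the host on the other strand, stood at 26.6 and 33.3 CPM.

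The 7 genes that fell had few counts, with dark means of 4.22 to 17.4 CPM and light means of at most 1.60. In all 7 the light libraries lay below the dark libraries, a pattern of 494 genes (2.33% of those tested). Megf10, the gene of a receptor by which astrocytes engulf debris, stood at 16.9, 26.7, 17.4 and 8.62 CPM in the dark and at 0.329, 2.06, 0.828 and 3.18 after light (−3.43 ± 0.79, adjusted p = 0.0423). Dock5, the gene of a Rac exchange factor, stood at 5.91, 11.2, 21.3 and 20 CPM in the dark and at 0.987, 0.295, 0 and 2.12 after light (−4.13 ± 0.96, adjusted p = 0.0478). Smim1, the gene of a small membrane protein, went from 8.95 ± 5.59 to 0.649 ± 0.775 CPM (adjusted p = 0.0327), and Lrrc47, which overlaps it on the other strand, from 6.85 to 1.21.

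Parp12, the gene of an ADP-ribosyltransferase, had 114 counts in the dark and 3 after light, a ratio of 41.4 with a 95% interval of 13.8 to 204 that covers counting error only. Trim36, the gene of a ubiquitin ligase, had 134 and 2 counts (73.0, 19.8 to 609), and dark replicate 4 alone stood at 24 CPM. Speer4a, of a multigene family whose copies share reads, and the noncoding Gm10863 had no counts after light and were at least 24-fold and 46.2-fold lower against a floor of 3 counts over the light group. These bounds, too, cover counting error only. All 7 lost the call without at least 1 library, and none was called with dark replicates 3 and 4 left out, although each kept its sign and an unadjusted p under 0.05. Just outside the threshold lay AC102496.1, 1700012D14Rik and Mdc1 (adjusted p = 0.0528 each), which were lower after light.

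Heat-shock chaperone genes were tested as a list because they respond to stress as well as to activity. None of 13 passed, and 13 of 13 changes were above 0 (beside 47.5% of all genes), with a median of 0.65. At an unadjusted p under 0.05, 4 (30.8%) were higher, beside 3.75% of all genes. Hsph1 was nearest to the threshold, with 72.1 ± 21.7 CPM in the dark and 160 ± 59.7 after light (adjusted p = 0.103). Of 18 circadian clock genes none passed. Per2 stood at 62.2, 49, 9 and 20 CPM in the dark and at 60.5, 89.0, 75.9 and 96 after light (adjusted p = 0.331), and dark replicates 3 and 4 were the low ones. Among 12 IGF signalling genes none passed, and Irs2, the gene of an adaptor of the insulin and IGF1 receptors, was nearest (5.24 ± 4.35 to 27.9 ± 13.0 CPM, adjusted p = 0.0755).

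Igf1 and Vip are made by few cortical cells, and in these small pools their levels differed widely between libraries of one group. Igf1 stood at 4.28, 2.35, 13.2 and 13.2 CPM in the dark and at 12.5, 0, 0.166 and 17.5 after light (−0.14 ± 1.17, adjusted p = 1). Vip stood at 27.3, 1.17, 158 and 80.4 CPM in the dark and at 60.2, 9.14, 4.31 and 168 after light (−0.14 ± 1.5, adjusted p = 1). The SEs are so wide that a change of either gene by several fold was not detectable here.

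Marker sums show how the RNA of cell type markers varied between the libraries, without telling cell number from RNA per cell. Excitatory neuron markers summed to 2420 ± 257 CPM in the dark and 2390 ± 158 after light, and GABAergic markers, which ran from 662 to 1960 CPM in single libraries, to 1200 ± 545 and 1190 ± 393. Their medians were −0.01 and −0.05 (0.55 for the GABAergic list with dark replicates 3 and 4 left out), and no member passed. Of the 15 excitatory markers, 2 (13.3%) were lower at an unadjusted p under 0.05, beside 4.9% of all genes, and none was higher. The 14 oligodendrocyte lineage markers summed to 1980, 786, 3620 and 3980 CPM in the dark and to 1100, 688, 558 and 974 after light. All 14 changes were below 0 (beside 51.3% of all genes), with a median of −1.64, and 5 (35.7%) were lower at an unadjusted p under 0.05, beside 4.9% of all genes, but none passed. With dark replicates 3 and 4 left out the median was −0.82. The groups overlap, and dark replicates 3 and 4, both male, hold most of the signal.

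Microglia markers summed to 391 ± 94.3 CPM in the dark and 248 ± 113 after light, with 11 of 11 changes below 0 (beside 51.3% of all genes) and a median of −0.59. None of the 11 was lower at an unadjusted p under 0.05, and the median was −1.06 without light replicate 1 and −0.36 with dark replicates 3 and 4 left out. Astrocyte markers summed to 656 ± 140 and 814 ± 121, with 8 of 10 changes above 0 (beside 47.5% of all genes) and a median of 0.47. None of them was higher at an unadjusted p under 0.05, and the median was 0.22 with dark replicates 3 and 4 left out. The 7 tested mitochondrially encoded genes summed to 925, 1170, 3170 and 3710 CPM in the dark and to 1220, 1580, 1290 and 1740 after light. Their median was −0.62, −0.23 without dark replicate 4 and 0.53 with dark replicates 3 and 4 left out. The 8 tested endothelial and mural markers summed to 0.90 to 24.5 CPM in the dark and to 0.987 to 5.90 after light, with Kcnj8 and Ly6c1 at 0 in both groups. The dark level of Dock5 was also highest in dark replicates 3 and 4. The part of these differences in the genes that fell or rose was not tested beyond leaving those libraries out.

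**Figure D4:**
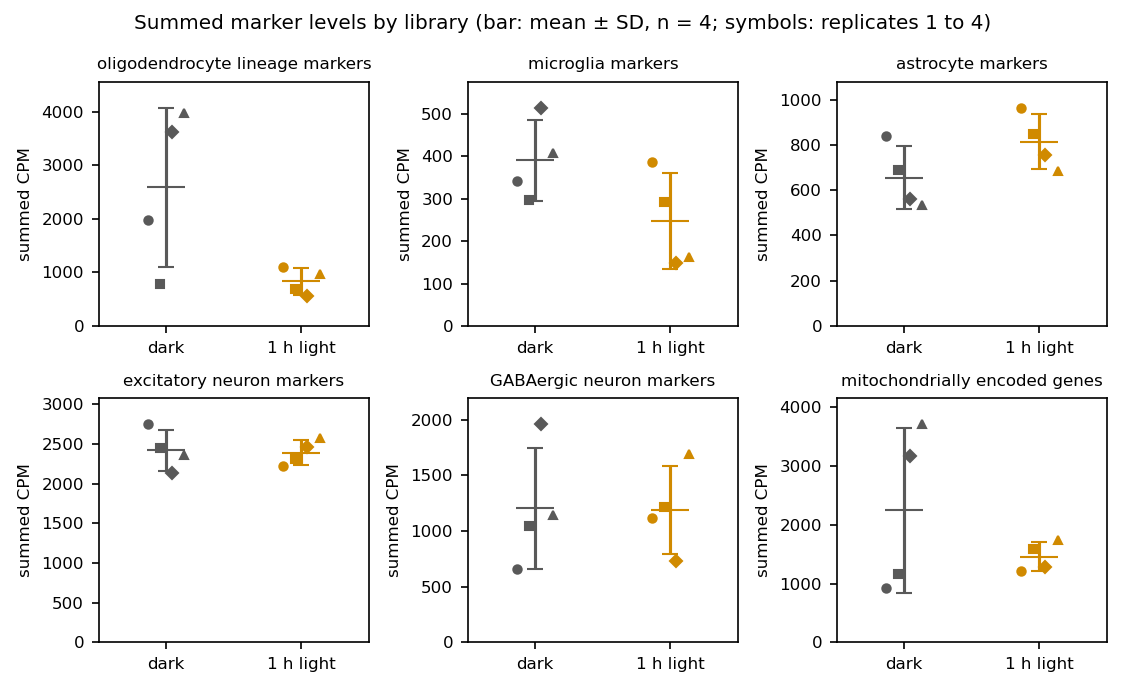
Summed levels of cell type markers and of mitochondrially encoded genes in each library (CPM; grey points dark, orange points 1 h light, symbols for replicates 1 to 4, bars mean ± SD, n = 4). Excitatory neuron sums lie between 2130 and 2750 CPM in all 8 libraries, while dark replicates 3 and 4 stand at 3620 and 3980 CPM of oligodendrocyte lineage markers and at 3170 and 3710 CPM of mitochondrial genes.

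The libraries of one group differed in where they stood among the genes that rose. Light replicate 1 was the lowest light library for 21 of the 31 genes, and light replicate 3 the highest for 14. In the dark, replicate 1 was the highest for 13 and the lowest for 7, replicate 2 the highest for 11 and replicate 3 the lowest for 13. Nr4a1 was highest in dark replicate 1, and Nr4a2 lowest there. These ranks were not tested. Dark replicate 1 was also the library in which Fos, Egr1, Junb and Arc were highest in the dark.

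The same 31 genes were then read in 4 other light comparisons, which share no library with E23 dCre total nuclei. Each was fitted together with those libraries, so that the estimate of a gene's spread is shared. The p-values are thus not independent of the choice of genes. For the VIP nuclei the labels do not say whether they came from the same animals. The 31 genes were chosen by their values in E23 dCre total nuclei, so that their median of 1.69 there is a description. In total nuclei of E23 mice given active Cre (4 light and 4 dark libraries) the median was 1.52. All 31 were higher after light there (beside 45.6% of all genes), 30 at an unadjusted p under 0.05 (beside 3.72% of all genes) and 11 past the threshold (beside 0.123%). The 11 are 35.5% of the 31 and 42.3% of the 26 genes that rose with Cre. In total nuclei of E123 dCre mice, whose length index was 3.38 ± 0.782 in the dark and 2.79 ± 0.292 after light (SD, n = 4 each), the median was 1.32, with 31 of 31 higher (48.8% of all genes), 30 at an unadjusted p under 0.05 (5.65% of all genes) and 16 past the threshold (0.325%).

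In total nuclei of E1 dCre mice (5 light and 3 dark libraries) the 31 genes had a median of 0.64. There 28 were higher (49.0% of all genes), 17 at an unadjusted p under 0.05 (10.8% of all genes) and 8 past the threshold (2.22%). Maml3 (−0.26), Pde10a (−0.24) and Nr4a3 (−0.02) were the 3 that were not higher. In the E1 dark group, replicates 1 and 2 had length indices of 3.79 and 3.88 and replicate 3 one of 2.30, so that light and this shift cannot be told apart there. In VIP nuclei of E23 dCre mice, sorted under the same labels, the median was 1.10. There 29 were higher (45.8%), 18 at an unadjusted p under 0.05 (5.13%) and 5 past the threshold (0.0567%), namely Nr4a1, P4ha1, Sik2, Fosl2 and 1700016P03Rik.

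**Figure D5:**
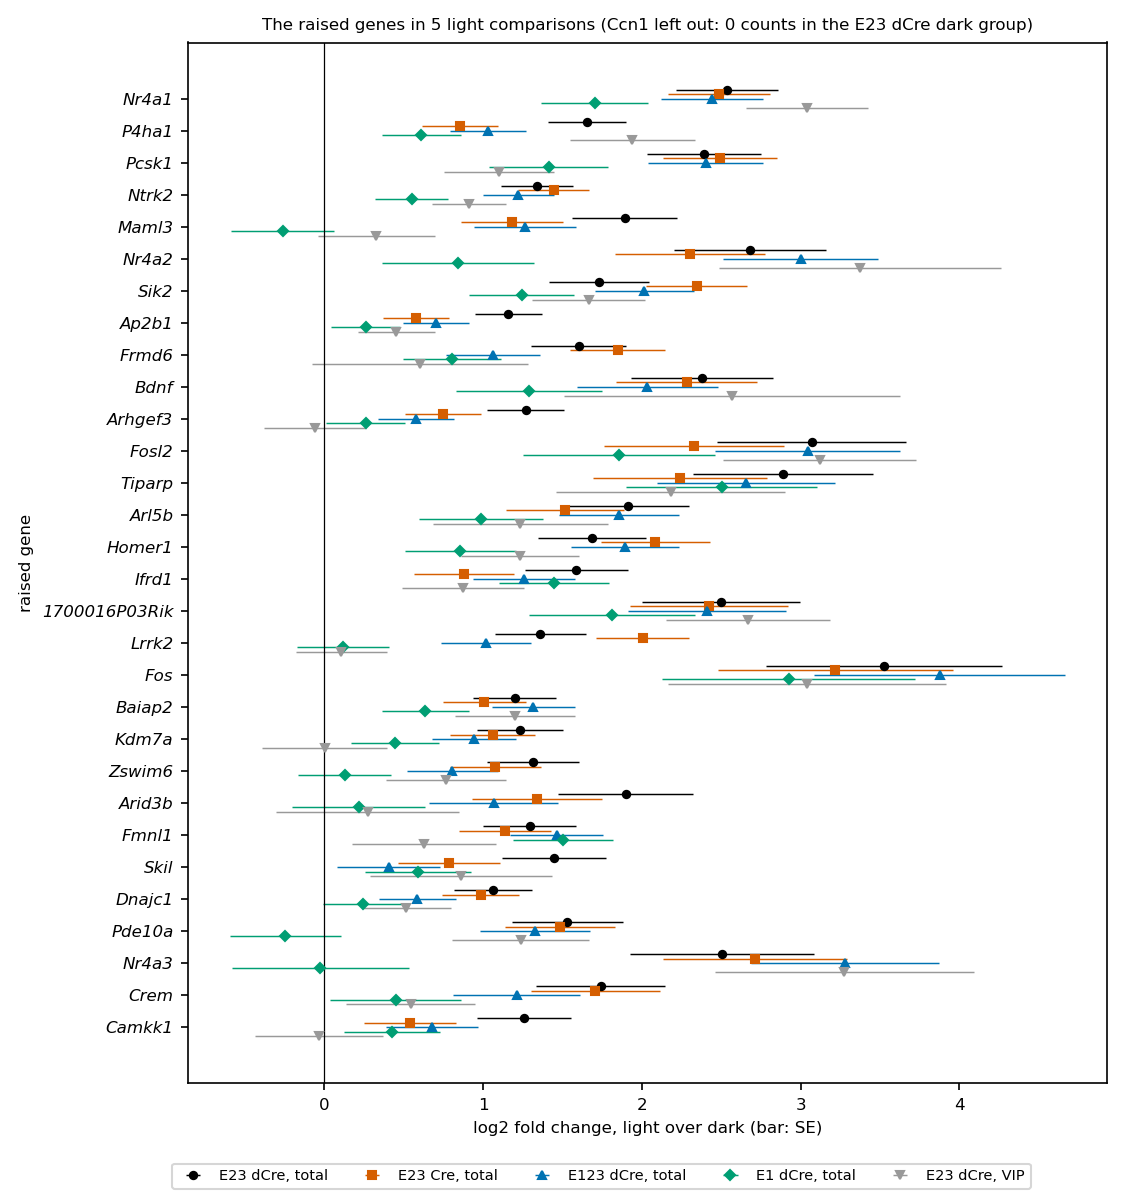
Log2 fold change of light over dark (bars: SE) in 5 comparisons for 30 of the genes that rose in E23 dCre total nuclei (Ccn1, with no dark counts, is left out). The VIP values come from the fit of all 96 libraries. Black, orange and blue points (E23 dCre, E23 Cre and E123 dCre total nuclei) lie close to each other for most genes, while green points (E1 dCre) are nearer to 0.

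The differences between the responses were tested directly. Between E23 dCre and E23 Cre no gene of 21213 passed in edgeR (901, or 4.25%, at an unadjusted p under 0.05). For Nr4a1 the difference was 0.05 with an approximate 95% interval of −0.80 to 0.90, for Pcsk1 −0.10 (−1.06 to 0.85) and for Fos 0.31 (−1.64 to 2.25). These intervals are too wide to show that the responses were equal. Against E123 dCre none passed (1418, or 6.68%, at an unadjusted p under 0.05), and against VIP nuclei none of 22926 (1778, or 7.76%). The genes compared here were chosen by their E23 dCre values, which enter each difference, so that small unadjusted p-values are no independent evidence. P4ha1 had a change of 1.66 with dCre and of 0.85 with Cre (difference 0.80, unadjusted p = 0.021, adjusted p = 1).

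Against E1 dCre nuclei 5 genes passed (0.0236% of those tested, with 3054, or 14.4%, at an unadjusted p under 0.05), none of them among the 38. Sipa1l3 (difference 2.80 ± 0.50, adjusted p = 0.00992), Prkag2 (1.83 ± 0.36, 0.0364) and Gse1 (2.03 ± 0.41, 0.0384) had a more positive change in E23. Patl2 (−3.62 ± 0.64, 0.00992) and B2m (−3.64 ± 0.65, 0.00992) had a more negative one. B2m, the gene of the light chain of MHC class I, overlaps Patl2 on the other strand, and their levels in E23 were all but equal (108 and 110 CPM in the dark, 52.6 and 52.9 after light), so that their reads cannot be told apart. With the length index as a covariate, or without E1 dark replicate 1 or 2, no gene passed. Without E1 dark replicate 1 and 2 in turn the differences were nearly as large (Sipa1l3 2.66 and 2.67, Prkag2 1.66 and 1.62, Gse1 1.85 and 1.80, Patl2 −3.27 and −3.33, B2m −3.29 and −3.32), with 2 dark E1 libraries left. With the length index they were 1.95, 0.99 and 1.11 for Sipa1l3, Prkag2 and Gse1 and −2.95 and −2.97 for Patl2 and B2m. The count was 1477 without E1 dark replicate 3, 14 without E23 dark replicate 2, and 3 without E1 light replicate 2 or 5, E23 light replicate 1 or 3 or E23 dark replicate 3 or 4. Among the 31 genes Maml3 came nearest to a difference from E1 (2.15, adjusted p = 0.0571).

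The genes that fell were read in the same way. Of the 7, 6 were also lower with Cre in E23, 4 in E1 dCre, 2 in E123 dCre and 2 in VIP nuclei, beside 53.6%, 50.3%, 50.5% and 48.9% of all genes, where the medians were −0.66, −0.52, 0.28 and 1.22. At an unadjusted p under 0.05 only 1 of these values was lower, in E1. These 7 genes were chosen by their low light values in E23 dCre nuclei, which also enter each difference. Differences with an unadjusted p under 0.05, found for all 7 against each of the 3 other comparisons of total nuclei and for 6 against VIP nuclei (beside 4.25%, 14.4%, 6.68% and 7.76% of all genes), are thus a description, and none passed after adjustment.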

How the data were processed

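RNA of 50 to 100 sorted nuclei per library was made into cDNA from poly(A) tails, amplified in 17 cycles and sequenced without strand, per the labels' protocols. The authors deposited raw gene counts, and the submitters' processing notes name cutadapt 1.18, STAR 2.5.3a, HOMER 4.9.1 and build mm10. The annotation release and the strand setting are not given in the sources used here. Gene IDs were matched to GENCODE M21 (55154 of 55335, the rest with 0.0225% of counts). All 48 total-nuclei libraries were fitted together in edgeR 4.0.16 (R 4.3.3; filterByExpr, TMM, 1 coefficient per group, robust quasi-likelihood F test), with Benjamini-Hochberg adjustment over the 21213 genes tested. The light response of VIP nuclei and its difference from that of total nuclei came from a fit of all 96 libraries. Standard errors follow from the log2 change and its F statistic, and intervals are approximate. Bounds for genes with few counts cover counting error only. The length index compares long with short genes above a mean CPM of 1. DESeq2 1.42.0, other scalings, filters, covariates and leaving out libraries were alternatives.

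The genes named were a fixed set (Fos, Fosl2, Junb, Egr1, Npas4, Nr4a1, Arc, Igf1 and Vip), up to 10 called genes per direction with the smallest p, up to 4 called members of each list, and up to 5 called genes per direction of each difference. Predicted genes, pseudogenes and sex-linked genes were left out. Other genes were named after their values were seen. The comparison and the lists were chosen with earlier results of these data known.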

Additional observations from a re-analysis of the deposited data

Results flagged for a closer look

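Among the 44 named genes, each looked at in the dark and the light group, 5 of 88 groups held a library far from the other 3 on the log2(CPM + 1) scale. Chance gives about 1 in 20 such groups. In Ntrk2 light replicate 2 stood at 899 CPM, below the other light libraries and above each dark library. Light replicate 1 stood apart in Frmd6 (151 CPM) and in Bdnf (86.2 CPM), again below the other light libraries and above the dark. In Trim36 light replicate 1 at 0.658 CPM was the only light library above 0. In Egr1 dark replicate 1 at 158 CPM was above the other dark libraries.

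The light response of E23 dCre nuclei differed from that of E1 dCre nuclei, by edgeR's test of the difference, for Sipa1l3 (2.80), Prkag2 (1.83), Gse1 (2.03), Patl2 (−3.62) and B2m (−3.64). In E1 the light over dark changes of Sipa1l3, Prkag2 and Gse1 were −1.76, −0.94 and −1.66. There the length index also differed between the groups, so that light and this shift cannot be told apart. In E23 the changes were 1.04, 0.88 and 0.37, and none of the 3 passed. Without E1 dark replicate 1 or 2 none of the 5 passed, with differences nearly as large (2.66 and 2.67 for Sipa1l3) and 2 dark E1 libraries left. With the length index as a covariate none of the 5 passed either. The differences were then 1.95, 0.99 and 1.11 for Sipa1l3, Prkag2 and Gse1, and −2.95 and −2.97 for Patl2 and B2m.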

How the results depend on the processing

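The direction of the 38 called genes held in each of the 19 settings that gave them a value, and 2 lowered genes were not tested in the fits of these 8 libraries alone. Counts moved more. Against 38 calls (31 higher, 7 lower), there were 188 without a filter on low counts (74 and 114), 116 with DESeq2 (69 and 47), 96 with the length index as a covariate (81 and 15), 45 from these 8 libraries alone (30 and 15), and 37 from the 16 E23 total libraries (25 and 12). Total counts alone as the scale gave 34 and lost Fmnl1, Skil, Nr4a3, Crem and Camkk1. Leaving out 1 library gave 15 to 37 calls, 13 to 33 higher and 1 to 6 lower. Leaving out dark replicates 3 and 4 together, which are the male dark libraries, gave 2 calls, 2 higher and 0 lower. This alternative was chosen after seeing the data, and no other pair was left out. In the fit of all 96 libraries, which is not among the 19 settings, none of the 7 lowered genes was called. The cause of the moved counts was not tested.

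The labels do not say that equal replicate numbers pair libraries, and deviations of same-numbered libraries correlated at −0.0128 to 0.0333, with 2 of 4 light libraries nearest to their own number. With the replicate number as a block in a fit of these 8 libraries alone, 44 genes were called (34 higher, 10 lower), among them 24 of the 31 and 0 of the 7, of which 2 were not tested. The fit of the same 8 libraries without the block held 23 of the 31 and 2 of the 7.

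The difference from E23 Cre gave 17 genes without a filter and that from E123 dCre 92. For E1 dCre there were 486 without a filter, 0 with the length index, and 0 to 1477 with 1 library left out. The difference from VIP nuclei gave 0 in each setting run. For it, leaving out light E23 total libraries or VIP libraries was not run. Few nuclei per library limit what low genes can show.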

Other observations

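Several list members missed the threshold although all 4 light libraries lay above all 4 dark libraries, and they are named after their values were seen. Egr2, a zinc-finger immediate-early factor, stood at 0, 2.93, 0 and 0 CPM in the dark and at 19.7, 18.9, 27.7 and 22.3 after light (adjusted p = 0.103 in edgeR). Gpr3, the gene of a receptor that raises cAMP, stood at 1.63, 1.17, 3.30 and 1.54 CPM in the dark and at 17.1, 14.7, 38.1 and 21.5 after light (adjusted p = 0.103). Nptx2, the gene of a secreted pentraxin that gathers AMPA receptors at synapses, went from 5.48 ± 1.95 to 31.6 ± 14.1 CPM (SD, n = 4, adjusted p = 0.187 in edgeR). Ptgs2, the gene of cyclooxygenase 2, stood at 8.56, 1.76, 6.90 and 31.7 CPM in the dark and at 33.2, 76.1, 50.2 and 167 after light (adjusted p = 0.215).

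Among neuronal markers, Rorb, a layer 4 transcription factor gene, averaged 184 ± 56.8 CPM in the dark and 102 ± 18.1 after light (SD, n = 4, adjusted p = 0.389 in edgeR). Foxp2, a marker of deep-layer neurons, averaged 80.6 ± 49.4 and 40.1 ± 12.9 CPM (SD, n = 4, adjusted p = 0.388 in edgeR). The nuclear noncoding RNA Rian stood at 359, 372, 306 and 370 CPM in the dark and at 541, 530, 440 and 586 after light (adjusted p = 0.447).

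Of the genes that rose in E23 Cre total nuclei and were not called in E23 dCre nuclei, Rnf217, the gene of a ubiquitin ligase, was nearest here (30.3 ± 6.92 to 82.7 ± 3.93 CPM, SD, n = 4, adjusted p = 0.0614 in edgeR). Cpeb3, the gene of a regulator of synaptic translation, stood at 225 ± 37.1 and 398 ± 36.7 CPM (SD, n = 4, adjusted p = 0.103 in edgeR). No difference between the 2 viruses passed for either.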
